A study of Mus musculus with 6 samples.

Results

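The genes described here encode integrin subunits that act outside hemidesmosomes, namely *Itga2*, *Itga3*, *Itga5*, *Itga9*, *Itgav*, *Itgb1*, *Itgb3*, *Itgb5*, *Itgb6* and *Itgb8*. These 10 genes were chosen by symbol from the 37755 entries of the expression table. No rule on their values was used, but earlier results of these data were known when they were chosen. For a symbol on several entries, the one with the highest mean was taken. RNA-seq libraries of 3 preparations of primary mammary epithelial cells (MEC) were compared with those of 3 JNK-deficient tumor cell lines (MEKO), 1 library each.

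The MEC came from C57/Bl6J mice labelled WAPCre+, with *Mapk8* and *Mapk9*, the genes encoding JNK1 and JNK2, left intact. Glands of 3 to 5 virgin mice, at an age of 10 to 12 weeks, were pooled for each preparation, and the cells were grown on collagen I in medium with serum, EGF and insulin. The MEKO lines, numbered 199, 233 and 336, carry the label Mapk8KO Mapk9KO Cre+ and were each grown from a mammary tumor of a parous Wap-Cre+/- mouse homozygous for LoxP alleles of both *Mapk* genes, whose age the labels do not give. Both groups carry the Wap-Cre transgene. The *Wap* promoter is switched on by lactation and drives Cre in luminal cells, which express cytokeratin 8. The lines were passaged 2 times on collagen I and then moved to standard dishes, in DMEM/F12 with serum. In the paper all mice were of the C57/Bl6J background. Its females were bred at 10 to 12 weeks and followed for tumors after weaning, so the MEKO mice were older than the MEC mice. Genotype, tumor origin, age, parity, growth substrate and medium therefore change together between the groups and cannot be told apart. Mouse 199 is recorded with adenosquamous carcinoma, mouse 336 with adenocarcinoma and mouse 233 with features of both, and lines were matched to mice by number only.

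Integrins are cell surface receptors made of an α and a β subunit that bind the extracellular matrix and connect it to the actin cytoskeleton. The β1 subunit pairs with many α subunits, among them α2 (a collagen receptor), α3 (a laminin-332 receptor), α5 (the fibronectin receptor) and α9 (a receptor for tenascin C and other ligands). The αV subunit pairs with β1, β3, β5, β6 or β8 in receptors for ligands with the RGD motif, such as fibronectin, vitronectin and osteopontin. The αVβ6 and αVβ8 integrins also release TGFβ from its latent complex. In the mammary gland, β1 integrins on basal and luminal cells contact the basement membrane. The α6β4 integrin of hemidesmosomes is not part of the group.

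Expression is given in FPKM, the number of sequenced fragments scaled by the length of the transcript and the size of the library, so levels of different genes can be set side by side. Differences between groups are MEKO minus MEC on the scale of log2(FPKM + 1), which understates the change of weakly expressed genes. A gene was called higher or lower when the limma adjusted p, over all 12461 entries with a mean of at least 1 FPKM, was under 0.05 and the log2 fold change was beyond 0.75. All 10 subunits passed that expression filter. Each subunit was also tested by exact permutation (two-sided), which with 3 against 3 cannot go below p = 0.1. Its value was 0.1 for each of the 6 subunits whose groups did not overlap.

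*Mapk8* was at 22.5 ± 2.98 FPKM in MEC and 3.47 ± 2.30 in MEKO (SD, n = 3 each), and *Mapk9* at 22.7 ± 1.53 and 4.61 ± 2.60, both called lower (limma adjusted p = 0.0146 and 0.0122). Line 199 was the highest of the lines for both. In lines 199, 233 and 336, *Mapk8* was at 5.93, 3.12 and 1.37 FPKM and *Mapk9* at 7.62, 3.155 and 3.07. Each library held between 17343 and 18741 entries above 0. The number of reads behind an FPKM is unknown, and the depth relative to MEC 1, read from the smallest values, was between 0.92 and 1.30. Pearson's r of log2(FPKM + 1) across genes, which are not independent replicates, was 0.944 to 0.966 among MEC, 0.856 to 0.903 among MEKO and 0.793 to 0.855 between the groups. Summed epithelial markers (6 genes) were at 2638 to 3181 FPKM in MEC and 985 to 1815 in MEKO, with 2 of the 6 called lower and 0 higher. *Epcam* was detected in every library, at 519 to 549 FPKM in MEC and 128 to 252 in MEKO, and was called lower (limma adjusted p = 0.0154). Summed luminal markers (9 genes) were at 4924 to 8432 FPKM in MEC and 543 to 1988 in MEKO, where line 199 was lowest. The keratins *Krt8*, *Krt18* and *Krt19* made up most of the sum in each library. Of the 8 luminal markers tested, 5 were called lower and 0 higher, where 7.26% of all tested entries were called lower. The part of the epithelial and luminal markers in the results was not tested.

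Of the 10 subunits, 4 were called lower in MEKO (*Itgb1*, *Itgb3*, *Itgb8* and *Itga9*), 0 were called higher, and 6 did not pass the test. Over all tested entries, 7.26% were called lower and 2.64% higher by the same rule. At an unadjusted p under 0.05, limma gave 5 subunits lower and 1 higher (*Itgb5*), against 15.7% and 12.4% of all tested entries. All 3 lines lay below all 3 MEC libraries for 6 subunits, against 18.7% of all tested entries. Another 18.5% of all tested entries had the lines above MEC, which held for 0 subunits, and the groups overlapped for the other 4. The median log2 fold change of the 10 subunits was -1.56, with 8 of 10 below 0, and that of all tested entries was 0.014, with 6080 of 12461 below 0. The number of subunits called fell to 1 without MEC 1, to 2 without MEC 2, line 233 or line 336, and rose to 6 without line 199. Over all tested entries, 1234 were called, 300 without MEC 1, 336 without MEC 2 and 1886 without line 199. Without line 233 it was 984 entries, and without line 336 it was 902. In bulk RNA, fewer cells of a type and less RNA per cell cannot be told apart.

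**Figure D1:**
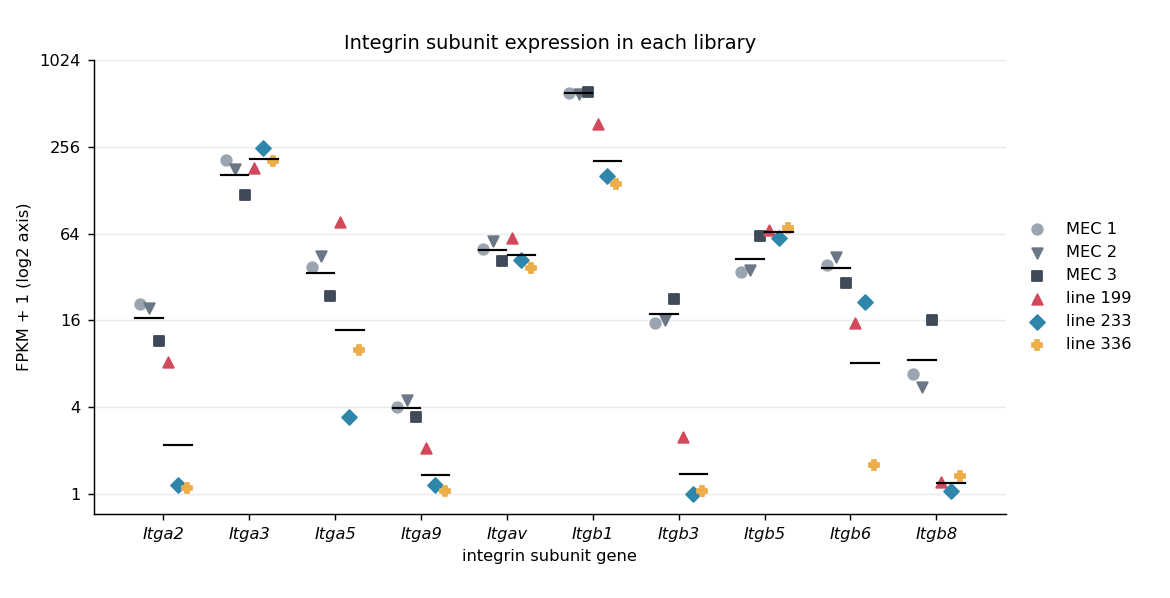
Expression of each integrin subunit, as FPKM + 1 on a log2 axis, with a point for each of the 3 MEC preparations and 3 MEKO lines and a bar at each group's mean on the log scale. All 3 lines sit below all 3 MEC libraries for 6 subunits, and *Itgb3* falls from 14.3 to 21.6 FPKM in MEC to between 0 and 1.48 in MEKO.

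The genomic windows at the transcription starts are shown for the subunits called lower, the members on which the comparison of the groups turns. RefSeq windows of 300 bases (250 before the start and 50 after it) were found for 9 of the 10 genes on GRCm38.p6, with no entry for *Itgb3*. The letters TGANTCA were searched on both strands, because JNK phosphorylates the AP1 subunit c-Jun. They take in the core of AP1 sites, TGACTCA or TGAGTCA, and also looser forms with A or T in the middle. Matches are in capitals. The first window lies at the start of *Itgb1* (chr8:128685404-128685703, plus strand), the next at a start of *Itgb8* (chr12:119238227-119238526, minus strand), and the last at a start inside *Itga9* (chr9:118711442-118711741, plus strand).
Itgb1: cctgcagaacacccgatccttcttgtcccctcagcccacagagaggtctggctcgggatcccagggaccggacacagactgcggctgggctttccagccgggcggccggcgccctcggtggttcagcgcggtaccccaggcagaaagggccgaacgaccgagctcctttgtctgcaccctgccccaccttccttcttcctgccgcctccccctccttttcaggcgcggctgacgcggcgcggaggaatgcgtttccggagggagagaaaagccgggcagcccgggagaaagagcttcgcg
Itgb8: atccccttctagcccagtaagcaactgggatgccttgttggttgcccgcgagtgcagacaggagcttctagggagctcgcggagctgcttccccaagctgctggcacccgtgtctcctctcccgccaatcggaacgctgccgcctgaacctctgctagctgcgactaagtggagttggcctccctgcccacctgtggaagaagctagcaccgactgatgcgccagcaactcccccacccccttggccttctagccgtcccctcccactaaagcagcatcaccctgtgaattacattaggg
Itga9: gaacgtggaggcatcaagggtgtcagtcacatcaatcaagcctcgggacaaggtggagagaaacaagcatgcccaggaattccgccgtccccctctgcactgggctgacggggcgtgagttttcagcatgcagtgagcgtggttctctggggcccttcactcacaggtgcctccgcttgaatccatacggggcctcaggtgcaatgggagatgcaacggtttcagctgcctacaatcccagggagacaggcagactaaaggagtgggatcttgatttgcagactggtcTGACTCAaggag
Of the 11 windows of the matched subunits, 2 held the letters. They were the *Itga9* window above, with TGACTCA, and an internal window of *Itga3* (chr11:95069149-95069448, minus strand), with the looser form TGAATCA. Of all 32851 windows in the RefSeq table, 7.81% held the letters in any form. The *Itgb1* and *Itgb8* windows held no match, which says only that these letters are not in these 300 bases.

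The β1 subunit was the most highly expressed of the 10 in MEC and was called lower in MEKO. *Itgb1* (chr8:128685654-128733200, plus strand, with gene positions here and below from GENCODE M21 on GRCm38) was at 602, 592 and 616 FPKM in MEC 1, 2 and 3, and at 366, 159 and 141 in lines 199, 233 and 336. Every line was below every MEC library, and line 199 was the highest of the lines. The means were 603 ± 12.0 and 222 ± 125 FPKM (SD, n = 3), a ratio of 2.72 in favor of MEC, and the log2 fold change was -1.57 (SE 0.36, limma adjusted p = 0.0426). The lines kept 60.6%, 26.4% and 23.4% of the MEC mean. The call held in 6 of 13 alternatives, and limma adjusted p values over them ran from 0.00177 to 0.148. It was lost with no filter on low values, with quantile normalization, and when any single MEC library, line 233 or line 336 was left out.

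Among the α subunits that pair with β1, the laminin receptor subunit α3 had the highest level in all 6 libraries and was not called. *Itga3* (chr11:95044474-95076801, minus strand) was at 206, 179 and 118 FPKM in MEC and 181, 249.7 and 203 in lines 199, 233 and 336. The groups overlapped, with a log2 fold change of 0.36 (SE 0.25, limma adjusted p = 0.381).

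The collagen receptor subunit *Itga2* (chr13:114833081-114932100, minus strand) was at 19.8, 18.4 and 10.5 FPKM in MEC and 7.21, 0.157 and 0.1003 in lines 199, 233 and 336. All lines were below MEC, and lines 233 and 336 were near 0. The log2 fold change of -2.93 (SE 0.80) did not pass the test over all 6 libraries (limma adjusted p = 0.0687). Without line 199 it was -3.89 and was called lower (limma adjusted p = 0.00271).

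The fibronectin receptor subunit *Itga5* (chr15:103344286-103366763, minus strand) divided the lines. It was at 36.4, 43.9 and 22.6 FPKM in MEC, at 76.1 in line 199, at 2.42 in line 233 and at 8.98 in line 336. Line 199 was above the MEC range, at 222% of the MEC mean, and lines 233 and 336 were below it, at 7.05% and 26.2%. Over the 3 lines the log2 fold change was -1.31 (SE 1.07, limma adjusted p = 0.461), without line 199 it was -2.55 and called lower (limma adjusted p = 0.0336), and without line 233 it was -0.30 (limma adjusted p = 0.858). *Fn1*, which encodes fibronectin and was picked after its values were seen, was at 344, 294 and 505 FPKM in MEC and 246, 18.5 and 17.7 in lines 199, 233 and 336.

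The least expressed α subunit, *Itga9* (chr9:118606690-118901003, plus strand), was at 3.03, 3.50 and 2.45 FPKM in MEC and 1.09, 0.154 and 0.0445 in lines 199, 233 and 336. It was called lower, with a log2 fold change of -1.55 (SE 0.33, limma adjusted p = 0.0362), and the groups did not overlap. The call held in 5 of the 12 alternatives in which the gene was tested (limma adjusted p from 0.00577 to 0.135). It was lost with a pseudocount of 0.1, with quantile normalization, and when any single MEC library, line 233 or line 336 was left out.

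Basal, myoepithelial and fibroblast markers also differed between line 199 and lines 233 and 336. Summed basal and myoepithelial markers (8 genes) were at 1341 to 2328 FPKM in MEC, 1882 in line 199, 10.1 in line 233 and 45.1 in line 336, and none of the 8 was at 0 in any library. In line 199, 3 of the 8 (*Krt5*, *Krt14* and *Trp63*) were above the MEC range and 5 (*Acta2*, *Myh11*, *Mylk*, *Cnn1* and *Oxtr*) were below it, and in lines 233 and 336 all 8 were below. *Krt5*, a keratin of basal cells, was at 201 to 435 FPKM in MEC and 608, 1.33 and 15.3 in the lines. *Myh11*, a smooth muscle myosin, was at 22.4 to 41.8 FPKM in MEC and 0.0812, 0.0148 and 0.0382 in the lines, and was called lower (limma adjusted p = 0.000715). Summed fibroblast markers (8 genes) were at 118 to 207 FPKM in MEC and 1111, 2.43 and 4.23 in lines 199, 233 and 336, and *Col1a1* made up 599.7 of the 1111 FPKM in line 199. In line 199, 5 of the 8 (the 3 collagens, *Pdgfra* and *Pdgfrb*) were above the MEC range and 3 (*Dcn*, *Lum* and *Thy1*) were below it, and *Dcn* was called lower over the 3 lines (limma adjusted p = 0.00821). In line 233 *Dcn* and *Lum* were at 0, as was *Lum* in line 336. Bulk RNA does not tell whether the tumor cells or other cells expressed these markers. Their part in the levels of *Itga2*, *Itga5* and *Itgb1* was not tested.

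The αV subunit was not called. *Itgav* (chr2:83724397-83806916, plus strand) was at 49.1, 56.0 and 40.0 FPKM in MEC and 59.0, 40.7 and 35.8 in lines 199, 233 and 336. The groups overlapped, and the log2 fold change of -0.12 (SE 0.23, limma adjusted p = 0.774) became 0.032 without line 336. Of its exon bases, 5.9% overlap *Gm13684* on the opposite strand, whose reads cannot be told apart if strand was not used in counting.

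Of the β subunits other than β1 that pair with αV, *Itgb3* and *Itgb8* were called lower, and *Itgb5* and *Itgb6* were not called. *Itgb3* (chr11:104608000-104670476, plus strand), the β chain of the vitronectin receptor αVβ3, was at 14.3, 15.0 and 21.6 FPKM in MEC and 1.48, 0 and 0.0449 in lines 199, 233 and 336. Every line was far below every MEC library, and line 233 was listed at 0. The log2 fold change was -3.69 (SE 0.40, limma adjusted p = 0.00447), and *Itgb3* was called lower in all 13 alternatives in which it was tested (limma adjusted p from 0.000685 to 0.0323).

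*Itgb8* (chr12:119158022-119238802, minus strand), the β chain of a TGFβ-releasing integrin, was at 5.86, 4.52 and 15.2 FPKM in MEC and 0.212, 0.0583 and 0.330 in lines 199, 233 and 336. The groups did not overlap, and MEC 3 was the highest library for both *Itgb3* and *Itgb8*. The log2 fold change of *Itgb8* was -2.83 (SE 0.42, limma adjusted p = 0.0132), a call lost only without MEC 1 (limma adjusted p = 0.0588) among its 12 alternatives.

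*Itgb6* (chr2:60598292-60722643, minus strand), an epithelial subunit that also serves in TGFβ release, was at 37.6, 43.2 and 27.9 FPKM in MEC and 14.3, 20.4 and 0.591 in lines 199, 233 and 336. All lines were below MEC, but line 336 was far below the other two, and the log2 fold change of -2.19 (SE 0.95) did not pass the test (limma adjusted p = 0.194). Without line 336 it was -1.02 and did not pass either (limma adjusted p = 0.0809).

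*Itgb5* (chr16:33829665-33949338, plus strand), the β chain of another vitronectin receptor, was at 33.7, 34.7 and 60.2 FPKM in MEC and 67.2, 58.6 and 69.2 in lines 199, 233 and 336. Line 233 was just below MEC 3, so the groups overlapped. The log2 fold change of 0.64 (SE 0.25) did not pass the test (limma adjusted p = 0.158), and without MEC 3 it was 0.90 and called higher (limma adjusted p = 0.0413).

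Markers of endothelial cells, of platelets and megakaryocytes, of leukocytes and of adipocytes were summed as well. Endothelial markers (6 genes) were at 2.30 to 22.1 FPKM in MEC and 0.175 to 2.05 in MEKO, and in MEC 3, the library with the most *Itgb3*, they were at 2.30. Platelet and megakaryocyte markers (5 genes) were at 5.55 to 38.6 FPKM in MEC and at 1264, 12.9 and 35.1 in lines 199, 233 and 336. *Ppbp* alone gave 1262 FPKM of the sum in line 199. The platelet factor gene *Pf4* was at 6.71, 9.73 and 3.83 FPKM in MEC and 0.385, 0 and 0.0520 in lines 199, 233 and 336, and was called lower (log2 fold change -2.70, limma adjusted p = 0.00803). Within MEC, *Pf4* was lowest in MEC 3, where *Itgb3* was highest. *Itga2b*, of the same list, was at 0.432, 0.709 and 0.790 FPKM in MEC and 1.01, 0.892 and 2.45 in the lines, and was not called. Of the 5 markers, 2, 3 and 3 were above the MEC range in lines 199, 233 and 336, and 1 was below it in each. Leukocyte markers (6 genes) were at 22.6 to 42.1 FPKM in MEC and 3.37 to 46.9 in MEKO, of which the defining marker *Ptprc* was at no more than 0.399. *Itgb2*, itself an integrin subunit, gave 44.1 of the 46.9 FPKM in line 233, and *Cd68* gave 23.5 FPKM in line 336. *Lyz2* was at 16.5, 19.6 and 32.9 FPKM in MEC and 0.0159, 0 and 0.0182 in the lines, and was called lower (limma adjusted p = 0.00094). Within MEC, *Lyz2* and the leukocyte sum were highest in MEC 3, as *Itgb3* was, and *Ptprc* was highest in MEC 2. In lines 199, 233 and 336, 4, 4 and 3 of the 6 were below the MEC range and 1, 1 and 2 above it. Adipocyte markers (5 genes) were at 1.48 to 11.8 FPKM in MEC and 0.0898 to 1.19 in MEKO. *Fabp4* alone was at 7.74, 11.7 and 1.28 FPKM in MEC, while *Adipoq* and *Plin1* were at 0 in every MEC library. The part of these cell types in the levels of *Itgb3* was not tested.

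Levels within each group put the subunits in order. In MEC, *Itgb1* was above *Itga3*, which was above *Itgav*, *Itgb5*, *Itgb6* and *Itga5*, and these were followed by *Itgb3*, *Itga2*, *Itgb8* and then *Itga9*. The ranges of neighbors from *Itgav* to *Itga5*, and from *Itgb3* to *Itgb8*, overlapped. In MEKO the ranges of *Itgb1* and *Itga3* overlapped, both were apart from *Itgb5*, and each neighbor after *Itgb5* (*Itgav*, *Itga5*, *Itgb6*, *Itga2*, *Itgb3*, *Itga9* and *Itgb8*) overlapped the next.

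Each line was also set against MEC on its own, with no test, since a line is 1 library. A subunit was counted when the line lay outside the range of MEC and its log2 ratio to the MEC mean was beyond 0.75. Line 199 had 5 subunits lower (*Itga2*, *Itga9*, *Itgb3*, *Itgb6* and *Itgb8*) and 1 higher (*Itga5*), where 16.9% of all tested entries were lower and 12.8% higher. Lines 233 and 336 each had the same 7 lower, namely those 5 with *Itga5* and *Itgb1*, against 17.5% and 18.2% of all tested entries, and 0 higher, against 9.92% and 11.2%. The 5 subunits lower in line 199 were lower in all 3 lines, against 8.14% of all tested entries. *Itgb8* had log2 ratios of -2.81, -3.00 and -2.67 in lines 199, 233 and 336. At its low level the added 1 FPKM limits how far these ratios can fall or differ. Its FPKM in the lines was 2.49%, 0.685% and 3.87% of the MEC mean. *Itgb6* had log2 ratios of -1.26, -0.78 and -4.53, with 39.5%, 56.3% and 1.63% of the MEC mean.

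**Figure D2:**
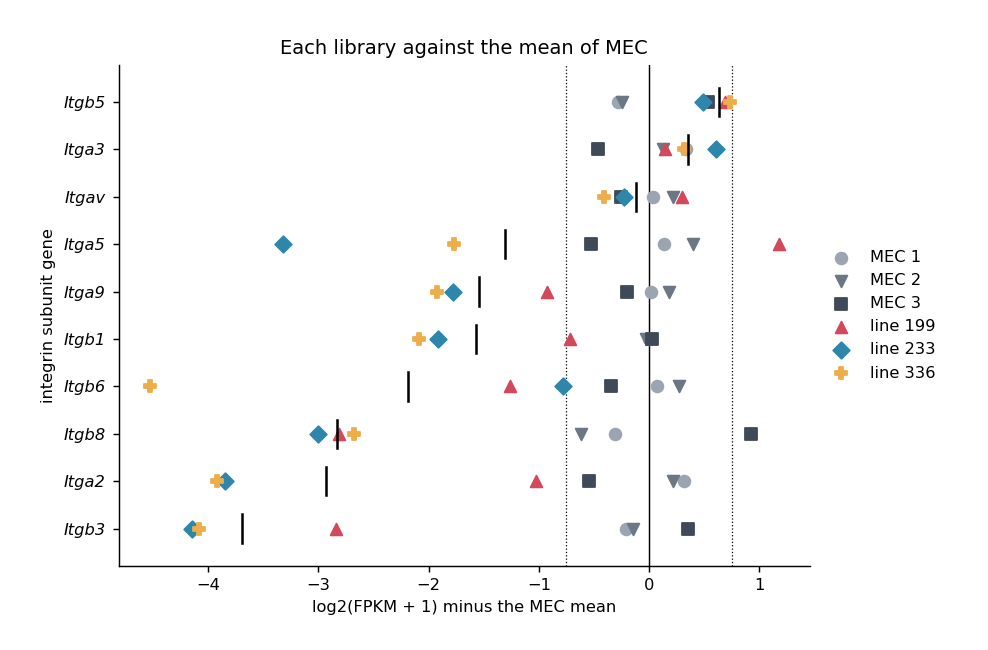
Difference of log2(FPKM + 1) from the MEC mean for each subunit, with a point for each library, a bar at the mean of the 3 lines and dotted lines at 0.75 on either side of 0. *Itga5* has lines on both sides of 0, from 1.18 in line 199 to -3.32 in line 233. *Itgb8* lies between -3.00 and -2.67 in all lines, where the added 1 FPKM limits the difference.

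The β partners of αV other than β1 were taken as shares of the summed FPKM of *Itgb3*, *Itgb5*, *Itgb6* and *Itgb8*. *Itgb1*, which also pairs with many other α subunits, was left out of the sum. Its level was 592 to 616 FPKM in MEC and 141 to 366 in MEKO, so the shares hold among these 4 only. The share of *Itgb5* was 36.9%, 35.6% and 48.2% in MEC and 80.8%, 74.1% and 98.6% in lines 199, 233 and 336. Every line was above every MEC library, with means of 40.2% ± 6.94 and 84.5% ± 12.7 (SD, n = 3, exact permutation p = 0.1, the smallest possible). The share of *Itgb3* was 15.6%, 15.4% and 17.3% in MEC and 1.77%, 0% and 0.0640% in the lines (exact permutation p = 0.1). The share of *Itgb8* was 6.40%, 4.64% and 12.1% in MEC and 0.254%, 0.0738% and 0.470% in the lines (exact permutation p = 0.1). *Itgb6* held 22.4% to 44.3% in MEC and 17.2%, 25.8% and 0.842% in the lines, and its groups overlapped (exact permutation p = 0.2). The 4 β subunits summed to 91.5, 97.4 and 125 FPKM in MEC and to 83.2, 79.0 and 70.2 in the lines (exact permutation p = 0.1).

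**Figure D3:**
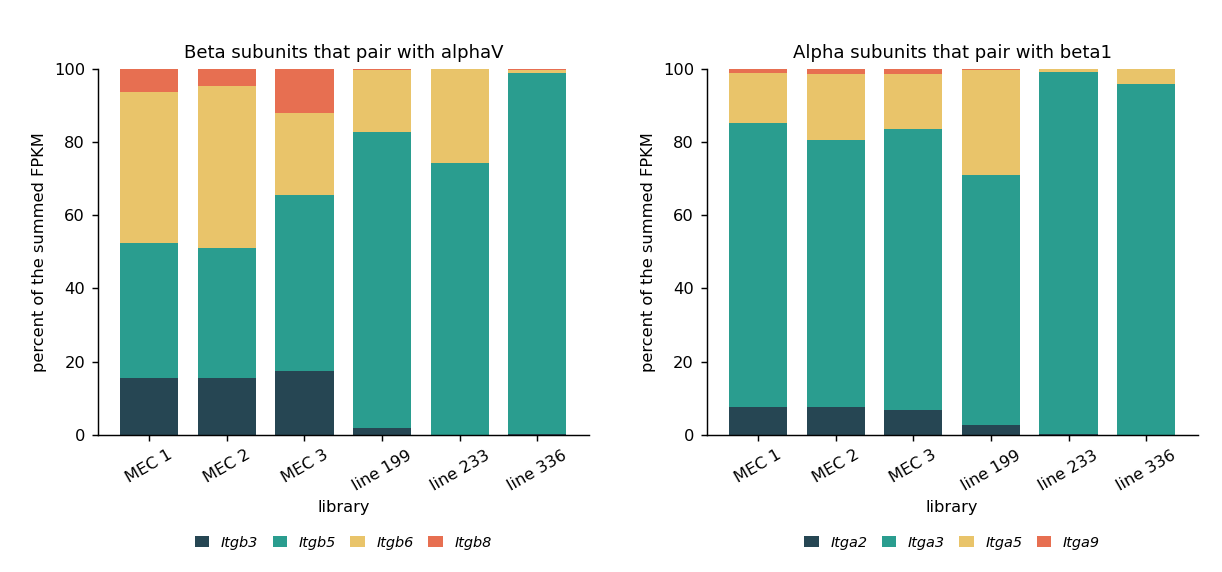
Stacked shares, in percent of summed FPKM in each library, of the 4 β subunits that pair with αV and of the 4 α subunits that pair with β1. *Itgb5* makes up 74.1% to 98.6% of the 4 β subunits in MEKO and 35.6% to 48.2% in MEC. *Itgb1*, which also pairs with αV, is left out. *Itga3* is the largest share of the 4 α subunits in all 6 libraries.

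The α partners of β1, as shares of the summed FPKM of *Itga2*, *Itga3*, *Itga5* and *Itga9*, were led by *Itga3* in each library. Its share was 77.7%, 73.1% and 76.8% in MEC and 68.2%, 98.9% and 95.7% in lines 199, 233 and 336, and the groups overlapped (exact permutation p = 0.4). *Itga5* held 13.7%, 18.0% and 14.8% in MEC and 28.7%, 0.958% and 4.23% in the lines (exact permutation p = 0.8). The share of *Itga2* was 7.28% ± 0.393 in MEC and 0.943% ± 1.54 in MEKO, and that of *Itga9* was 1.39% ± 0.231 and 0.164% ± 0.214 (SD, n = 3, exact permutation p = 0.1 for each).

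The groups overlapped in the summed level of the α partners and did not overlap in *Itgb1*. The sum was 265, 244 and 153 FPKM in MEC and 265, 252 and 212 in lines 199, 233 and 336 (exact permutation p = 0.7). The ratio of this sum to *Itgb1*, a measure chosen after the values were seen, was 0.441, 0.413 and 0.249 in MEC and 0.725, 1.59 and 1.504 in lines 199, 233 and 336. Every line was above every MEC library (0.368 ± 0.104 and 1.27 ± 0.475, SD, n = 3, exact permutation p = 0.1). With *Itgav* and the β1 partners *Itga1*, *Itga6*, *Itga7*, *Itga8* and *Itga11* added to the sum, the ratio was 0.478 to 0.744 in MEC and 1.19, 2.38 and 1.92 in the lines. *Itgb1* alone was 59.7% to 65.9% of the summed FPKM of all 10 subunits in MEC and 47.3%, 29.96% and 30.7% in the lines.

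**Figure D4:**
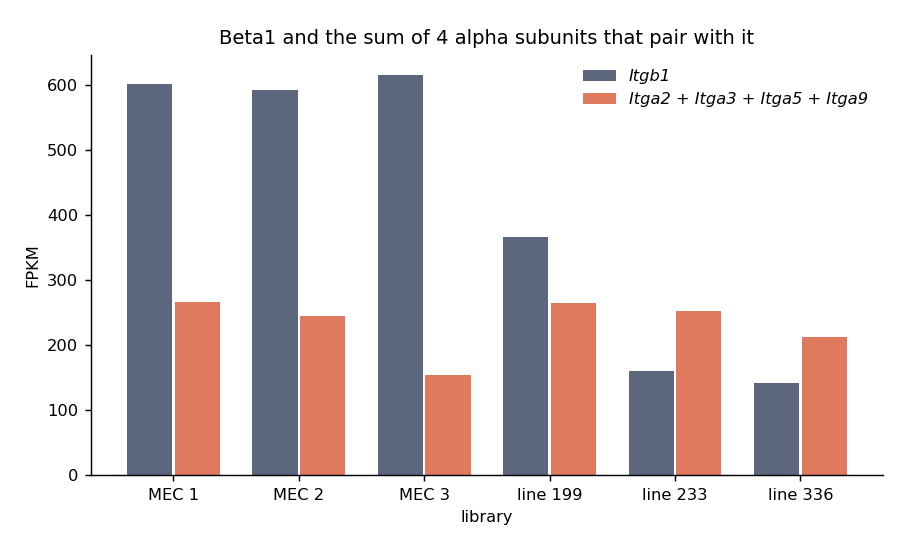
Bars of the FPKM of *Itgb1* and of the summed FPKM of *Itga2*, *Itga3*, *Itga5* and *Itga9* in each library. The sum is 153 to 265 FPKM in MEC and 212 to 265 in MEKO, while *Itgb1* is at 592 to 616 in MEC and 141 to 366 in MEKO, below the sum in lines 233 and 336.

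Protein-coding genes around each subunit were set beside it. Over tested neighbors within 2000000 bases, the median log2 ratio to MEC lay between -0.52 and 0.45 for every subunit and line. The 5 neighbors of *Itgb1* had medians of 0.33, 0.33 and 0.45 in lines 199, 233 and 336, where *Itgb1* itself was at -0.72, -1.91 and -2.09. The 5 neighbors of *Itgb8* had medians of -0.38, -0.52 and -0.44, where *Itgb8* was at -2.81, -3.00 and -2.67.

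Genes that work with integrins were taken from 5 lists, in which 100 of 123 genes were tested, 13 were called lower and 1 higher. Over all tested entries, 7.26% were called lower and 2.64% higher. Without MEC 2 the number called was 4, without MEC 1 it was 5, without MEC 3 it was 7, and without line 199 it was 42. The calls over the whole table moved in the same directions, from 1234 to 336, 300, 560 and 1886 in these same fits. Without line 233 and without line 336 they numbered 984 and 902. The median log2 fold change was -1.65 for ligands, -0.45 for activators and inhibitors, -0.30 for adhesion effectors, -0.043 for membrane partners and -0.43 for other integrin subunits, against 0.014 over all tested entries.

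Among 30 tested ligands, 5 were called lower and 0 higher. At an unadjusted limma p under 0.05, 13 were lower and 1 higher, against 15.7% and 12.4% of all tested entries. The number called was 1 without any single MEC library, 2 without line 233 or line 336 and 23 without line 199. *Lamb3*, a chain of laminin-332, was at 64.8, 70.9 and 40.8 FPKM in MEC and 23.0, 5.70 and 2.90 in lines 199, 233 and 336 (log2 fold change -2.77, limma adjusted p = 0.0476). *Tnc*, which encodes the α9β1 ligand tenascin C, was at 367, 299.9 and 443 FPKM in MEC and 157, 39.8 and 36.98 in the lines (log2 fold change -2.55, limma adjusted p = 0.0378). *Lama4*, a laminin chain, had a log2 fold change of -2.53 (limma adjusted p = 0.00363). For these ligands no line reached any MEC library. *Spp1*, which encodes osteopontin and was picked after its values were seen, was at 154, 194 and 101 FPKM in MEC and 58.3, 734 and 675 in the lines, and did not pass the test.

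Of 26 tested adhesion effectors, which link integrins to actin, 4 were called lower and 0 higher. By an unadjusted limma p under 0.05, 9 were lower and 1 higher, against 15.7% and 12.4% of all tested entries. The number called was 1 without MEC 2 and 2 without MEC 1. *Zyx*, a focal adhesion LIM protein, had a log2 fold change of -2.20 (limma adjusted p = 0.0202), *Actn1*, an actin crosslinker, -1.87 (limma adjusted p = 0.00411), and *Ilk*, a scaffold that binds β integrin tails, -1.54 (limma adjusted p = 0.0150). *Ilk* was at 201, 229 and 171 FPKM in MEC and 84.9, 48.7 and 74.8 in the lines, with no overlap.

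Of 19 tested activators and inhibitors, 1 was called lower, *Numb*, an endocytic adaptor (log2 fold change -1.15, limma adjusted p = 0.0458), and 0 were called higher. By an unadjusted limma p under 0.05, 6 were lower and 1 higher, against 15.7% and 12.4% of all tested entries. No gene of that list was called when any single MEC library was left out, and 8 were without line 199. Of 17 tested membrane partners, the tetraspanin *Cd82* (-2.90, limma adjusted p = 0.00167) and the syndecan *Sdc4* (-1.30, limma adjusted p = 0.00803) were called lower, and the tetraspanin *Tspan4* was called higher (0.80, limma adjusted p = 0.0332). Of these 17, 5 were lower and 1 higher at an unadjusted limma p under 0.05, against the same 15.7% and 12.4%. *Cd82* was at 55.2 to 71.5 FPKM in MEC and 6.16 to 10.3 in MEKO, and *Tspan4* at 38.2 to 47.4 and 62.5 to 82.02.

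**Figure D5:**
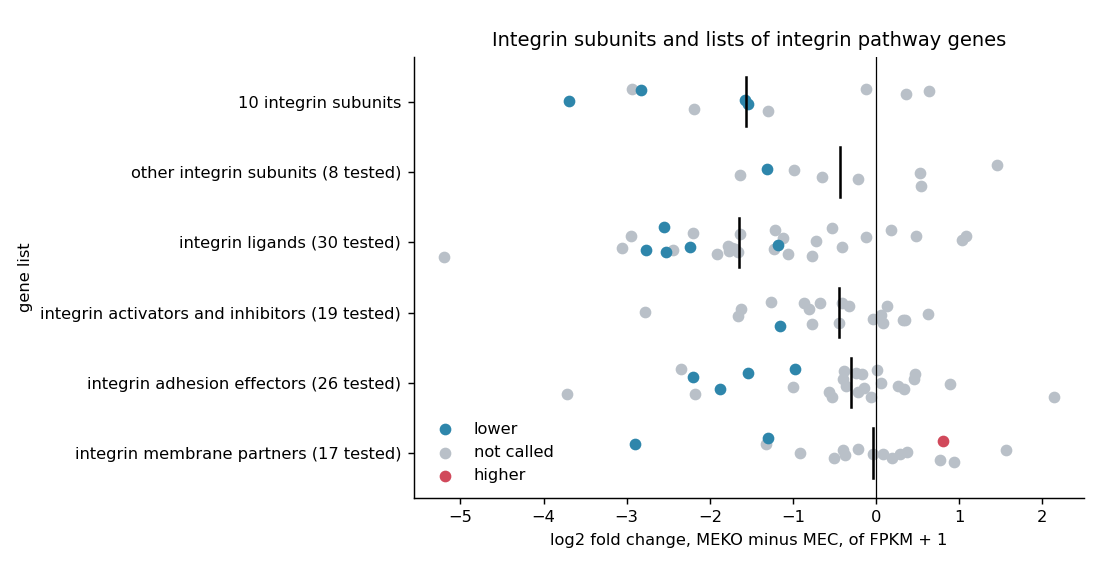
Log2 fold change, MEKO minus MEC, of the 10 integrin subunits and of the tested genes of 5 lists of integrin pathway genes, with a point for each gene, colored by its call, and a bar at the median of each list. The medians are -1.56 for the 10 subunits, -1.65 for the ligands and -0.043 for the membrane partners.

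Of 8 tested integrin subunits outside the 10, *Itga1*, a collagen receptor subunit, was called lower, with 2.06, 2.49 and 1.10 FPKM in MEC and 0.421, 0.0291 and 0.00353 in lines 199, 233 and 336 (log2 fold change -1.31, limma adjusted p = 0.0474). None of the 8 was called higher by limma. At an unadjusted limma p under 0.05, 2 were lower and 0 higher, against 15.7% and 12.4% of all tested entries. No gene of the 8 was called without MEC 1, MEC 2, line 233 or line 336, nor with a pseudocount of 0.1 or quantile normalization. The subunits of hemidesmosomes were not called. *Itga6* was at 93.5 to 124 FPKM in MEC and 96.6, 85.4 and 21.5 in the lines, and *Itgb4* at 45.5 to 76.4 and 44.5, 63.3 and 20.5, with line 336 lowest for both.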

How the data were processed

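RNA of 3 MEC preparations and 3 MEKO tumor cell lines was sequenced as paired-end reads of 150 bp. Per the labels and the study's methods, the authors trimmed reads with Trimmomatic, aligned them to mm10 (GRCm38) with Bowtie2 and TopHat2 (v2.0.14) and computed FPKM with Cufflinks (v2.2.1). The deposited table holds 1 FPKM value for each gene and library. Whether counting used strand is not given in the sources used here. No date or batch of sequencing is given in the labels, and one aligned with the groups could not be separated from them.

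Groups came from the sample labels. Entries with a mean FPKM of at least 1 (12461) were tested with limma (v3.58.1) in R (v4.3.3) on log2(FPKM + 1), with the trend option of its empirical Bayes step, and p-values were adjusted over all of them by Benjamini-Hochberg. The script was tested on simulated data. Calls needed an adjusted p under 0.05 and a log2 fold change beyond 0.75. FPKM carries no read counts, so no count test or counting interval was made. With the libraries as the only replicates, p-values measure the spread between them.

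The 10 members and all gene lists were chosen with earlier results of these data known. Every member is named, along with the called genes of largest change in each list (up to 3 per direction), *Mapk8* and *Mapk9*, and defining markers. Other names were chosen after their values were seen. Positions came from GENCODE M21 and start windows from RefSeq. Protein sequences of the subunit tails were not analysed here. Alternatives were another pseudocount (0.1), no filter, a filter at a mean of 5 FPKM, quantile normalization, upper-quartile scaling, no trend, sample weights, no fold threshold and each library left out in turn, which kept the same 12461 entries.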

Additional observations from a re-analysis of the deposited data

How the results depend on the processing

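The number of entries called over the whole table was 1234, and it was 738 with a filter at a mean of 5 FPKM, 1978 with sample weights and between 300 (without MEC 1) and 1886 (without line 199) with 1 library left out. Of the 10 subunits, 4 were called, and the number was 2 with the filter at 5 FPKM, under which *Itga9* and *Itgb8* were not tested, 2 with quantile normalization and between 1 and 6 with 1 library left out. For the quantile fit the cause was not tested. The pathway lists gave 14 calls, 35 with sample weights and between 4 and 42 with 1 library left out. The log2 fold change of *Itgav* ran from -0.32 (without line 199) to 0.032 (without line 336) with 1 library left out, and the latter reversed its sign. The other 9 subunits kept the sign of their fold change under every alternative in which they were tested. Quantile normalization moved the median log2 fold change of all tested entries from 0.014 to 0.10. With 1 library left out, the differences in the subunit shares and in the ratio to *Itgb1* kept their sign, with 1 exception. The difference in the *Itga5* share went from -4.18 to 0.99 percentage points without line 233. Leaving out 1 of 3 libraries cannot move a difference by more than the spread between replicates, so the size of these moves was not judged. The shares were not recomputed with another normalization. No paired analysis was possible because MEC are numbered 1 to 3 and the lines 199, 233 and 336, with no number shared. The reads behind low FPKM values are not known.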

Other observations

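Among integrin subunits outside the 10, some were above MEC in 1 or 2 lines by a wide margin, and these were picked after their values were seen. *Itga11*, a collagen receptor subunit, was at 0.638, 1.02 and 0.338 FPKM in MEC and at 11.9, 0.0138 and 0.0409 in lines 199, 233 and 336, so that line 199 was above MEC and the other two were below. *Itgb2*, the β chain of leukocyte integrins, was at 2.21 to 2.55 FPKM in MEC and at 2.57, 44.1 and 3.87 in the lines, while the leukocyte marker *Ptprc* was at 0.0146 FPKM in line 233. *Itgb7*, another leukocyte β chain, was under the expression filter, with 0.0727 to 0.126 FPKM in MEC and 2.71, 1.06 and 0.0260 in lines 199, 233 and 336. None of these 3 was called between the groups by limma, and *Itgb7* was not tested.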
